A study of Homo sapiens with 24 samples.

Results

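The genes described here are the small nuclear RNAs (snRNAs), small nucleolar RNAs (snoRNAs) and small Cajal-body RNAs (scaRNAs) of ARPE-19, an established line of human retinal pigment epithelium cells. Members were chosen by name and by measured level: symbols that begin with RNU, SCARNA, SNORA or SNORD followed by a digit, selected on a deposited TPM value above 0 in at least 1 sample. Every identifier in the table meets that level, so the name alone decided membership. The rule gave 187 of the 24053 Ensembl identifiers in the table, under 185 distinct symbols, since SNORA62 stands for 3 identifiers. They comprise 70 snRNAs of the major spliceosome (62 of them with pseudogene names), 11 scaRNAs, 70 H/ACA box snoRNAs and 33 C/D box snoRNAs. The other 3, RNU4ATAC, RNU6ATAC and RNU6ATAC18P, are named for the minor spliceosome, and the last has a pseudogene name. That a member is above 0 somewhere is therefore not a result.

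The cells had been given a scrambled control siRNA (scramble), an siRNA against Pink1, an siRNA against Nrf2 (the NFE2L2 gene), or both (the double siRNA). Each of the 4 groups had 3 biological samples, each sequenced as 2 technical replicates, for 24 libraries. The sample labels use the words knockout and KD where the series design says siRNA, and their protocols also describe scratch wounding without saying whether the cells sampled for RNA were wounded. Knockdown by siRNA is partial: PINK1 was at 26.2% of the scramble mean with the Pink1 siRNA and 33.5% with the double siRNA, and NFE2L2 at 24.8% with the Nrf2 siRNA and 35.8% with the double siRNA. Values are TPM (transcript abundance), a level per transcript length scaled to the same total in every library. The number of reads behind a value, and so the depth of each library, is unknown. Nothing in the sources says whether the biological samples were separate cultures, so p-values measure the spread between these samples.

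A single transcript, ENSG00000226958, took between 15.5% and 41.4% of all TPM in a library, with the lowest share in double siRNA replicate 3. That sample also had the fewest members above 0, 34 against 40 to 69 in the other samples. Share and number did not move together throughout: Pink1 siRNA replicate 3, with the next lowest share (24.9%), had the most members above 0 (69). Double siRNA replicate 1, with the highest share (41.4%), had 57. Of 11 markers of retinal pigment epithelium, 7 had a scramble mean of at least 1 TPM, while RPE65 was listed at 0 in the scramble samples. Of 5 blood and 5 neural and photoreceptor markers, 1 each was in the table (PTPRC and SYP), with a scramble mean below 1 TPM. Of 4 endothelial and 4 fibroblast markers, 2 each were in the table, and KDR (1.14 TPM) and COL1A1 (1.59 TPM) had scramble means above 1 TPM.

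As background, snRNAs pair with proteins to form the particles of the spliceosome: U1 recognises the 5′ splice site, U2 the branch site, and U4 carries U6 into the spliceosome and holds it inactive until release. U4atac does the work of U4 in the minor spliceosome, which removes a rare class of introns. C/D box snoRNAs guide 2′-O-methylation and H/ACA box snoRNAs guide pseudouridylation, mostly of ribosomal RNA, and scaRNAs do the same for snRNAs in Cajal bodies. Most human snoRNAs and scaRNAs are cut from introns of host genes, whereas U1, U2 and U4 are made from their own promoters. These RNAs have no poly(A) tail in their mature form. The libraries were made with a kit that selects mRNA, per the labels' protocols, so TPM here gives what that selection carried over and cannot be read as the amount in the cell.

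The sequences below are shown because they belong to the most abundant members and to those that passed a test between groups. They come from the GENCODE 29 transcripts, on GRCh38, while the submitters' processing notes name GRCh37 and hg19 for the data. RNU4-1 (ENSG00000200795) lies at chr12:120293097-120293237, minus strand, and RNU4-2 (ENSG00000202538) at chr12:120291763-120291903, minus strand. RNU1-1 (ENSG00000206652) lies at chr1:16514122-16514285, minus strand, and RNU4ATAC (ENSG00000264229) at chr2:121530881-121531007, plus strand. Capitals mark the letters ATTTTTG or ATTTGTG, forms of the site where Sm proteins bind.

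RNU4-1: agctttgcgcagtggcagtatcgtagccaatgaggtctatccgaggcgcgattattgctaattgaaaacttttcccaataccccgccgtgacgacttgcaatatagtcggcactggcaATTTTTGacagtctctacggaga

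RNU4-2: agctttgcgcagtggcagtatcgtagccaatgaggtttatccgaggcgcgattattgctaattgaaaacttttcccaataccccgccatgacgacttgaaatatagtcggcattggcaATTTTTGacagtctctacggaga

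RNU1-1: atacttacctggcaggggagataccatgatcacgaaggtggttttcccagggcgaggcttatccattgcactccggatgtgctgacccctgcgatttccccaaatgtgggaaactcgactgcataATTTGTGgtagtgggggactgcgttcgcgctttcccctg

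RNU4ATAC: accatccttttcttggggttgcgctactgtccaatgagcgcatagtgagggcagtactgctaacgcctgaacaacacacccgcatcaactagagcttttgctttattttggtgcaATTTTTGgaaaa

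The U4 genes RNU4-1 and RNU4-2 differ at 4 of 141 positions (97.2% identity). Counted from the 5′ end with the RNU4-1 base first, the differences are C37T, G88A, C99A and C113T. Reads can fall on stretches that the 2 genes share, so the split of the U4 level between them is uncertain. The Sm letters, searched on the RNA strand only, were present in 32 of 70 spliceosomal snRNAs, in 1 of 70 H/ACA snoRNAs and in 6.08% of the 17145 GENCODE transcripts within the members' length range, 74 to 353 nt.

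SCARNA1 (ENSG00000252947; chr1:27834401-27834566, plus strand) lies in an intron of PPP1R8. SCARNA13 (ENSG00000252481; chr14:95533355-95533629, minus strand) lies in an intron of the long non-coding RNA SNHG10. SNORA73B (ENSG00000200087; chr1:28508559-28508762, plus strand), a copy of U17, lies in an intron of RCC1. In the scaRNAs, capitals mark TGAG, the letters of the Cajal-body box. In SNORA73B they mark the ACA of the H/ACA class, 3 bases before the 3′ end.

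SCARNA1: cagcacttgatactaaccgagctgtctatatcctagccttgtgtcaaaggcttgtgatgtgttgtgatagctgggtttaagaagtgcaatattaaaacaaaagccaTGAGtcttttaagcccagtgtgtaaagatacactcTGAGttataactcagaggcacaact

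SCARNA13: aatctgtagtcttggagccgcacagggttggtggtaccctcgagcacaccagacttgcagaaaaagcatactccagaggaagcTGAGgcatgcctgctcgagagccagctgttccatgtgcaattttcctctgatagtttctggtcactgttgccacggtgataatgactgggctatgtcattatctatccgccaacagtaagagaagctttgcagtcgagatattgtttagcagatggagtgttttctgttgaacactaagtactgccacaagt

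SNORA73B: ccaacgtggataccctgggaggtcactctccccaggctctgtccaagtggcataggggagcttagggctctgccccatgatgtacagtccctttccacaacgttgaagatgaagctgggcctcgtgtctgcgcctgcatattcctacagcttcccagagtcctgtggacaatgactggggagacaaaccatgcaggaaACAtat

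The ACA letters stood 3 bases before the end in 54 of 70 H/ACA snoRNAs and in 3.21% of the transcripts in that length range. TGAG was present in 11 of 11 scaRNAs, but also in 63.8% of those transcripts and in 29 of 33 C/D snoRNAs.

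The U4 snRNAs dominated the group. RNU4-1 had a mean of 16589 TPM over the 12 samples and RNU4-2 of 14158 TPM, ranks 2 and 3 among all 24053 identifiers. Both together made up 4.11% of all TPM in the scramble samples and 2.09% in the double siRNA samples, whereas all the other members together made up 0.474% and 0.213%. The next were SNORA8 at 622 TPM, the U1 genes at 214 TPM, RNU2-2P at 139 TPM, SCARNA22 at 123 TPM and SCARNA1 at 81.2 TPM. In all, 21 members averaged 20 TPM or more. RNU1-1, RNU1-2, RNU1-3, RNU1-4, RNU1-27P and RNU1-28P have one and the same reference sequence and one and the same value in every library, so they are 6 names for 1 measurement. The share of all the other members together includes that value under each of the 6 names.

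RNU4-1 was at 21936, 20339.8 and 24681 TPM in the scramble samples, at 15894, 13583 and 14219.6 TPM with the Pink1 siRNA, at 20464, 15430.1 and 19935 TPM with the Nrf2 siRNA and at 9661, 13713 and 9216 TPM with the double siRNA. The Pink1 siRNA samples and the double siRNA samples lay below all the scramble samples, while the Nrf2 siRNA samples overlapped them. The means were 22319 ± 2196 TPM in scramble and 10863 ± 2478 TPM with the double siRNA (SD, n = 3), or 48.7% of scramble. RNU4-1 fell by 1.06 ± 0.19 (SE) on the log2 scale of TPM + 1 with the double siRNA (limma, adjusted p = 0.026). With the Pink1 siRNA the log2 difference was -0.61 ± 0.19 (limma, adjusted p = 0.21), and with the Nrf2 siRNA it was -0.27 ± 0.19 (limma, adjusted p = 0.63); neither passed the threshold of 0.05.

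The call for RNU4-1 depended on single samples: leaving out any 1 of the scramble samples ended it, at log2 differences of -0.98 to -1.12. Quantile normalization, which forces all samples to 1 distribution, reduced the difference to -0.45 (limma, adjusted p = 0.087). The call held in 9 of the 17 alternatives, with an adjusted p of up to 0.46 (limma).

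RNU4-2 followed the same order, at 19598, 16082 and 20780.5 TPM in scramble, 13956, 11690.2 and 11149 TPM with the Pink1 siRNA, 17101, 13228 and 16130.4 TPM with the Nrf2 siRNA and 8724, 12793 and 8669 TPM with the double siRNA. Its double siRNA mean was 53.5% of scramble. The log2 difference of -0.92 ± 0.20 missed the threshold (limma, adjusted p = 0.055). Since the 2 genes can share reads, RNU4-2 is no independent repeat of RNU4-1. In bulk RNA, fewer cells with a transcript and less of it per cell cannot be told apart.

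**Figure D1:**
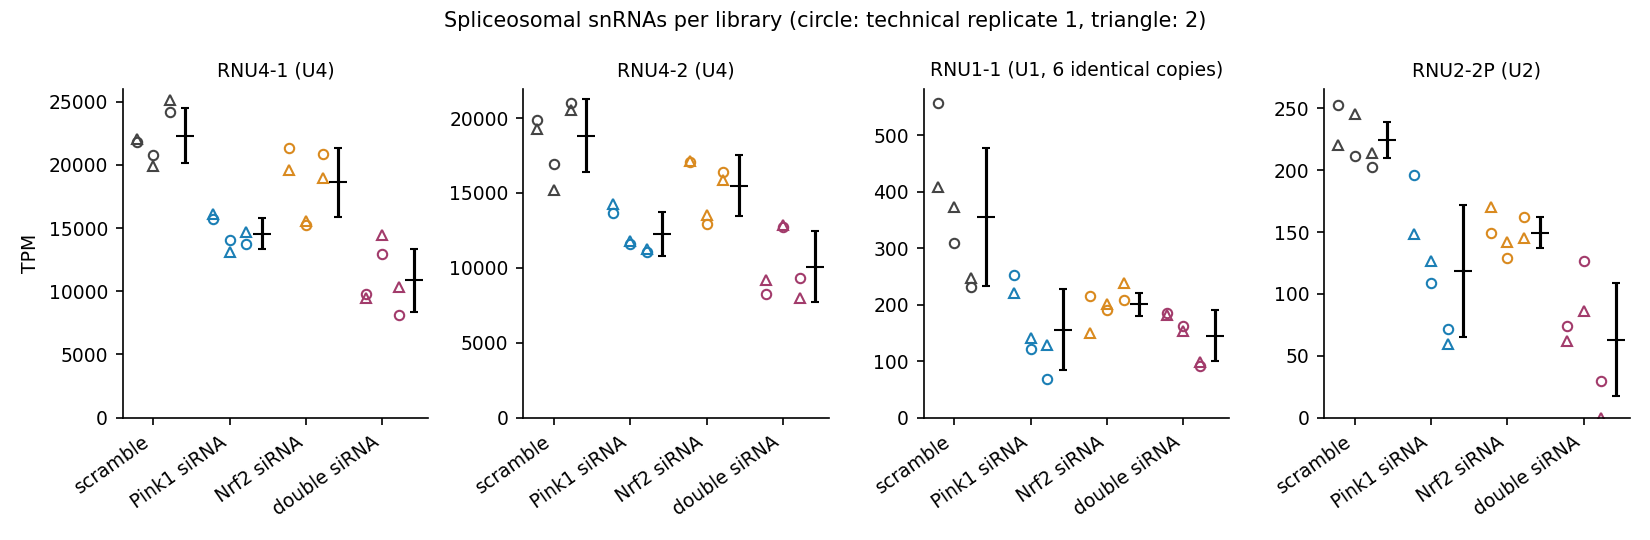
TPM of RNU4-1, RNU4-2, RNU1-1 and RNU2-2P (vertical axes, linear from 0) in each of the 24 libraries by group, with circles and triangles for technical replicates 1 and 2 and black bars for the mean ± SD of the 3 biological samples. For RNU4-1 the 6 double siRNA libraries reach at most 14476 TPM, below the lowest scramble library at 19887 TPM.

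The U1 measurement, given under RNU1-1, was 483, 342 and 239 TPM in scramble, 237, 131 and 99.0 TPM with the Pink1 siRNA, 183, 196 and 223 TPM with the Nrf2 siRNA and 183, 157 and 94.8 TPM with the double siRNA. Each siRNA group lay below all the scramble samples, though the highest Pink1 siRNA sample was close to the lowest scramble sample. None of these passed the test, with log2 differences of -1.22 ± 0.33 (limma, adjusted p = 0.14), -0.77 ± 0.33 (limma, adjusted p = 0.36) and -1.28 ± 0.33 (limma, adjusted p = 0.099) for the Pink1, Nrf2 and double siRNA. RNU2-2P, an expressed U2 copy despite its pseudogene name, was at 224 ± 14.5 TPM in scramble, 119 ± 53.4 TPM with the Pink1 siRNA, 149.6 ± 12.8 TPM with the Nrf2 siRNA and 63.0 ± 45.9 TPM with the double siRNA (SD, n = 3). Its siRNA samples also lay below all the scramble samples. The double siRNA difference of -2.20 ± 0.53 on the log2 scale did not pass (limma, adjusted p = 0.082).

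The U4atac gene RNU4ATAC was at 121, 47.4 and 103 TPM in scramble, 116, 30.9 and 35.1 TPM with the Pink1 siRNA, 61.7, 41.8 and 54.3 TPM with the Nrf2 siRNA, and 24.1, 0 and 0 TPM with the double siRNA. Only the double siRNA samples lay apart from scramble. RNU4ATAC fell by 4.86 ± 0.96 on the log2 scale (limma, adjusted p = 0.036), a size that depends on the pseudocount since 2 of the 3 samples were listed at 0. The technical replicates of a single sample also differed: scramble replicate 2 gave 94.7 and 0 TPM. With either technical replicate alone the call was lost (limma, adjusted p = 0.10 and 0.55), and 5 of the 6 fits that left out 1 of the compared samples lost it too.

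Among the scaRNAs, SCARNA1 was at 111, 70.6 and 132 TPM in scramble, 82.1, 64.3 and 62.8 TPM with the Pink1 siRNA, 100.1, 106 and 148 TPM with the Nrf2 siRNA and 47.8, 22.9 and 27.2 TPM with the double siRNA. The double siRNA samples lay below those of every other group. SCARNA1 fell by 1.67 ± 0.28 on the log2 scale with the double siRNA against scramble (limma, adjusted p = 0.019), to 31.3% of the scramble mean. Against the Nrf2 siRNA alone the difference was -1.87 ± 0.28 (limma, adjusted p = 0.069), and against the Pink1 siRNA alone -1.13 ± 0.28 (limma, adjusted p = 0.29). The interaction, which asks whether the double siRNA departs from the sum of the single siRNA differences, was -1.33 ± 0.39 and did not pass (limma, adjusted p = 0.67). With technical replicate 1 or 2 alone, the difference from scramble stayed at -1.71 and -1.60 but missed the threshold (limma, adjusted p = 0.073 and 0.064). The call held in 2 of the 6 fits that left out 1 of the compared samples.

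SCARNA22 was at 333, 203 and 151 TPM in scramble and at 59.0, 46.3 and 79.7 TPM with the double siRNA, without overlap. Its log2 difference of -1.83 ± 0.41 did not pass (limma, adjusted p = 0.063). SCARNA9 varied widely within a group: Nrf2 siRNA replicate 1 was at 258 TPM and the other 2 samples of that group at 32.3 and 18.9 TPM. Of the 2 libraries of that sample, one was at 483 TPM and the other at 31.8 TPM.

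SCARNA13 was at 7.28, 5.38 and 7.98 TPM in scramble, 1.48, 1.57 and 0 TPM with the Pink1 siRNA, 4.89, 4.79 and 5.65 TPM with the Nrf2 siRNA and 2.65, 6.58 and 4.58 TPM with the double siRNA. The Pink1 siRNA samples were the lowest of all. It fell by 2.07 ± 0.35 on the log2 scale with the Pink1 siRNA against scramble (limma, adjusted p = 0.023) and by 1.72 ± 0.35 with the Pink1 siRNA against the Nrf2 siRNA (limma, adjusted p = 0.038). Against scramble the call held with technical replicate 2 alone, at -3.28 (limma, adjusted p = 0.00091), and was lost with technical replicate 1 alone, at -1.15 (limma, adjusted p = 0.37); it held in 2 of the 6 fits that left out 1 of the compared samples. Against the Nrf2 siRNA the call was lost in each of the 6 such fits and held in 5 of 16 alternatives. Its host SNHG10, measured at 5.77 ± 5.90 TPM in scramble and 1.90 ± 0.44 TPM with the Pink1 siRNA (SD, n = 3), had a log2 difference of -0.89 (limma, adjusted p = 0.58). SCARNA5 was listed at 0 in all 6 double siRNA libraries and at 4.01 ± 2.32 TPM in scramble (SD, n = 3), a difference that did not pass by itself (limma, adjusted p = 0.071). It passed the joint test for any difference among the 4 groups (limma, adjusted p = 0.045).

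Among the H/ACA snoRNAs, SNORA73B was at 11.2, 11.3 and 7.95 TPM in scramble, 6.18, 3.55 and 5.54 TPM with the Pink1 siRNA, 3.29, 0 and 0 TPM with the Nrf2 siRNA, and listed at 0 in all 3 double siRNA samples. The scramble samples lay above all others. SNORA73B fell by 2.76 ± 0.45 on the log2 scale with the Nrf2 siRNA (limma, adjusted p = 0.024) and by 3.46 ± 0.45 with the double siRNA (limma, adjusted p = 0.0046). Both sizes depend on the pseudocount, since most of these siRNA samples were listed at 0. Over the alternatives they ran from -4.97 to -1.35 and from -6.66 to -1.59. The Nrf2 siRNA call held in 1 of the 6 fits that left out 1 of the compared samples and in 7 of 16 alternatives. The double siRNA call held in all 6 fits that left out 1 of the compared samples and in 15 of the 16 alternatives in which it was tested, and just missed the threshold in the other, technical replicate 1 alone (limma, adjusted p = 0.050). Neither host transcript in the region passed with the double siRNA. RCC1 was at 21.4 ± 1.64 TPM in scramble and 18.8 ± 8.90 TPM with the double siRNA, and the long non-coding snoRNA host SNHG3 was at 549.7 ± 171 and 295 ± 166 TPM (SD, n = 3; limma, adjusted p = 0.28 for SNHG3).

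SNORA80B was the only member that limma called higher in a comparison with scramble. It was listed at 0 in every scramble and every double siRNA library and was at 10.2, 24.7 and 11.3 TPM with the Pink1 siRNA. One Nrf2 siRNA sample reached 9.91 TPM, from 1 of its 2 libraries, and the other 2 were at 0. The fitted log2 difference of 3.93 ± 0.71 for the Pink1 siRNA passed (limma, adjusted p = 0.030), and no fold is given against a group at 0. SNORA80B met the filter of a mean of 1 TPM only through the Pink1 siRNA samples, the group in which it was called higher. Its call is therefore not independent of the filter. The call was lost in each of the 6 fits that left out 1 of the compared samples, and its host ODC1, an enzyme of polyamine synthesis, was at 178 ± 15.0 TPM in scramble and 233 ± 18.0 TPM with the Pink1 siRNA (SD, n = 3).

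**Figure D2:**
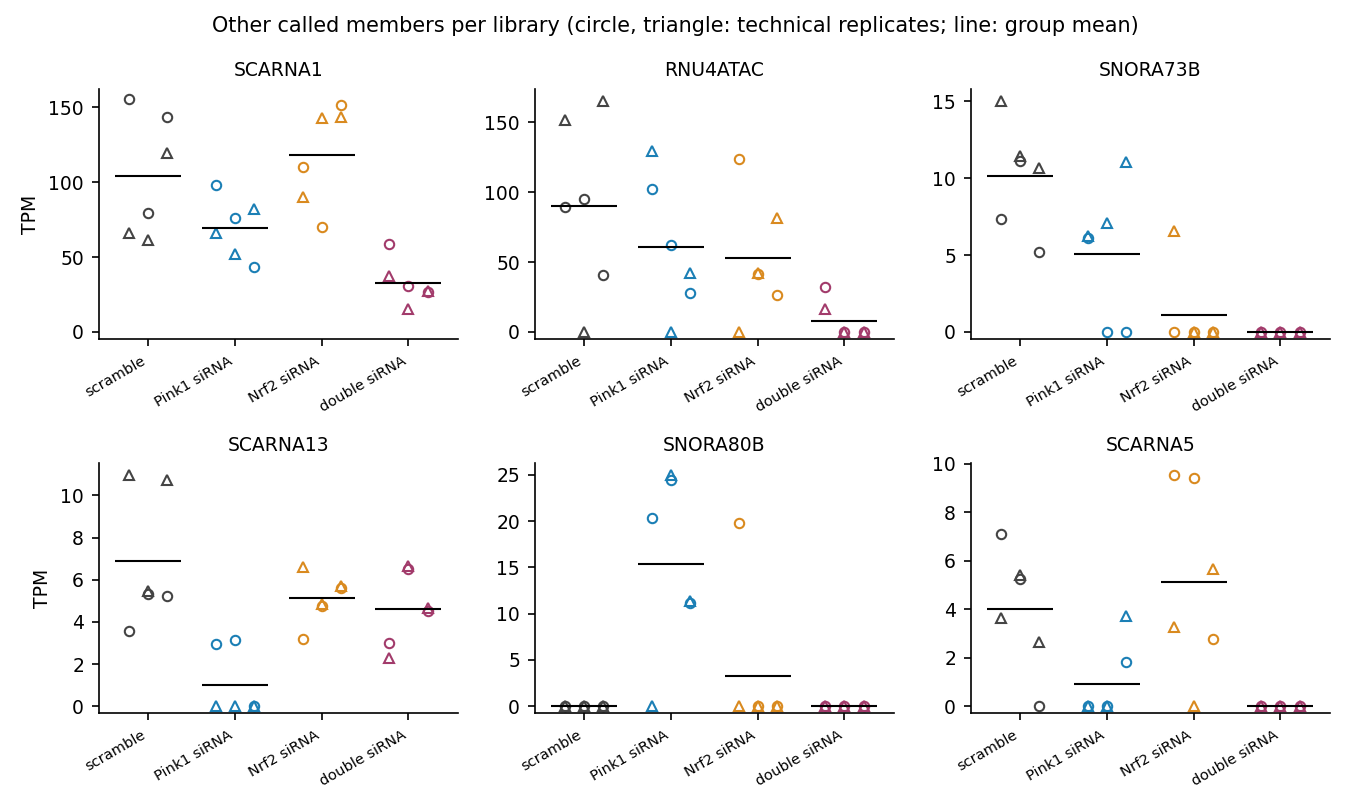
TPM (vertical axes) of SCARNA1, RNU4ATAC, SNORA73B, SCARNA13, SNORA80B and SCARNA5 in the 24 libraries by group, with circles and triangles for technical replicates 1 and 2 and a line at the mean of the 3 biological samples. SNORA73B and SCARNA5 are at 0 in all the double siRNA libraries, and SNORA80B is at 0 in all the scramble libraries.

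SNORA8, the most abundant snoRNA, overlapped between groups: scramble was at 1189, 625 and 829 TPM and the double siRNA at 435, 638 and 444 TPM. SNORA12 was at 113 ± 8.23 TPM in scramble and at 61.8 ± 12.9, 56.5 ± 27.6 and 64.9 ± 8.06 TPM with the Pink1, Nrf2 and double siRNA (SD, n = 3). Its scramble samples lay above the samples of all 3 siRNA groups, and no difference passed (limma, adjusted p = 0.27, 0.16 and 0.28). SNORA70 was at 69.3, 44.0 and 74.7 TPM in scramble, 0, 4.56 and 34.9 TPM with the Pink1 siRNA, 74.6, 0 and 4.56 TPM with the Nrf2 siRNA and 1.43, 0 and 16.4 TPM with the double siRNA. Its Pink1 and double siRNA samples lay below scramble, but neither difference passed (limma, adjusted p = 0.38 and 0.23). SNORA7A and SNORA7B differ at 2 of 139 positions (98.6% identity). They were above 0 with equal values in 7 libraries, and in 15 libraries 1 of them was at 0 while the other was not, so the split between them is uncertain.

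Of the 27 C/D box snoRNAs tested, limma called none in any comparison between groups; at an unadjusted p under 0.05 there were 1, 0 and 2 with the Pink1, Nrf2 and double siRNA against scramble. Over all genes 0.471%, 0.333% and 0.753% were called, so 0 of 27 is near the background. The unadjusted counts have no share over all genes beside them and are not read as a result. SNORD3A, a U3 gene needed for the cleavage of ribosomal RNA precursors, was the only C/D member above 0 in all 24 libraries, at 40.5 ± 24.8 TPM in scramble and 23.4 ± 10.3 TPM with the double siRNA (SD, n = 3). SNORD118, the U8 gene, was at 48.6, 0 and 38.1 TPM in scramble and at 19.4, 0 and 0 TPM with the double siRNA. SNORD3B-1, another U3 gene with the same sequence as SNORD3B-2, was at 5.13 ± 1.56 TPM in scramble and 1.13 ± 1.26 TPM with the Pink1 siRNA (SD, n = 3), without overlap (limma, adjusted p = 0.12). SNORD3B-2 overlapped, at 65.0% of the scramble mean and a log2 difference of -0.60 (limma, adjusted p = 0.73). With 1 sequence for both genes, the split between them is uncertain. In the other direction, SNORD17 was at 2.54, 7.68 and 7.33 TPM in scramble and 8.41, 14.0 and 8.97 TPM with the Pink1 siRNA (limma, adjusted p = 0.53). SNORD3C, a further U3 gene, was at 0 in the scramble samples and at 0.96, 6.59 and 0.28 TPM with the Pink1 siRNA (limma, adjusted p = 0.52).

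Over all members, the test covered the 143 members that averaged 1 TPM or more, among 13810 such genes in all; the other 44 were too low to be tested. These counts describe the members that passed this filter, not all 187, and SNORA80B passed it only through the Pink1 siRNA samples. With the Pink1 siRNA 2 members were called against scramble, SNORA80B higher and SCARNA13 lower, where 0.471% of all genes tested were called. With the Nrf2 siRNA 1 was called, SNORA73B, against 0.333% of all genes. With the double siRNA 4 were called, RNU4-1, SCARNA1, RNU4ATAC and SNORA73B, all lower, against 0.753% of all genes called and 0.282% called lower. These 3 comparisons use the same scramble samples. Over all genes, 49 were called higher and 16 lower with the Pink1 siRNA, and 65 and 39 with the double siRNA; with ENSG00000226958 removed these were 88 and 84, and 129 and 175. Pink1 siRNA against Nrf2 siRNA gave 1 member, SCARNA13, against 0.992% of all genes. For the double siRNA against the Pink1 siRNA limma called no member (14 at an unadjusted p under 0.05) and 0.0434% of all genes, and against the Nrf2 siRNA it called no member (13 at an unadjusted p under 0.05) and 0.0145% of all genes. The interaction gave no member (15 at an unadjusted p under 0.05) and 0.0% of all genes. These shares are of calls. No share over all genes stands beside the unadjusted counts of 14, 13 and 15, so they are not read as a result. The joint test called 5 members, SNORA73B, SCARNA1, SCARNA13, SNORA80B and SCARNA5, against 1.13% of all genes. Each of these calls was lost under at least 1 alternative.

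The 21 members that averaged 20 TPM or more lay mostly below scramble with the Pink1 and double siRNA. With the 6 U1 names counted once they are 16 measurements, of which RNU4-1 and RNU4-2 can share reads. Their log2 differences were below 0 for 13, 10 and 14 of 16 with the Pink1, Nrf2 and double siRNA, with medians of -0.67, -0.34 and -1.25. Among all 4935 genes at that level, 44.1%, 48.8% and 41.9% were below 0, with medians of 0.04, 0.01 and 0.06. Groups did not overlap, with the siRNA samples lower, for 7, 3 and 9 of the 16, against 13.9%, 11.7% and 6.73% of all genes at that level. The 3 with the Nrf2 siRNA, U1, RNU2-2P and SNORA12, are a share near that background. SNORA70, counted among the 7 and the 9, averaged 20 TPM only with its scramble samples included. Its place in these counts is therefore not independent of the filter. Over all 143 members tested, the median log2 differences were -0.07, 0.00 and 0.00, since most members were at 0 in most samples.

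**Figure D3:**
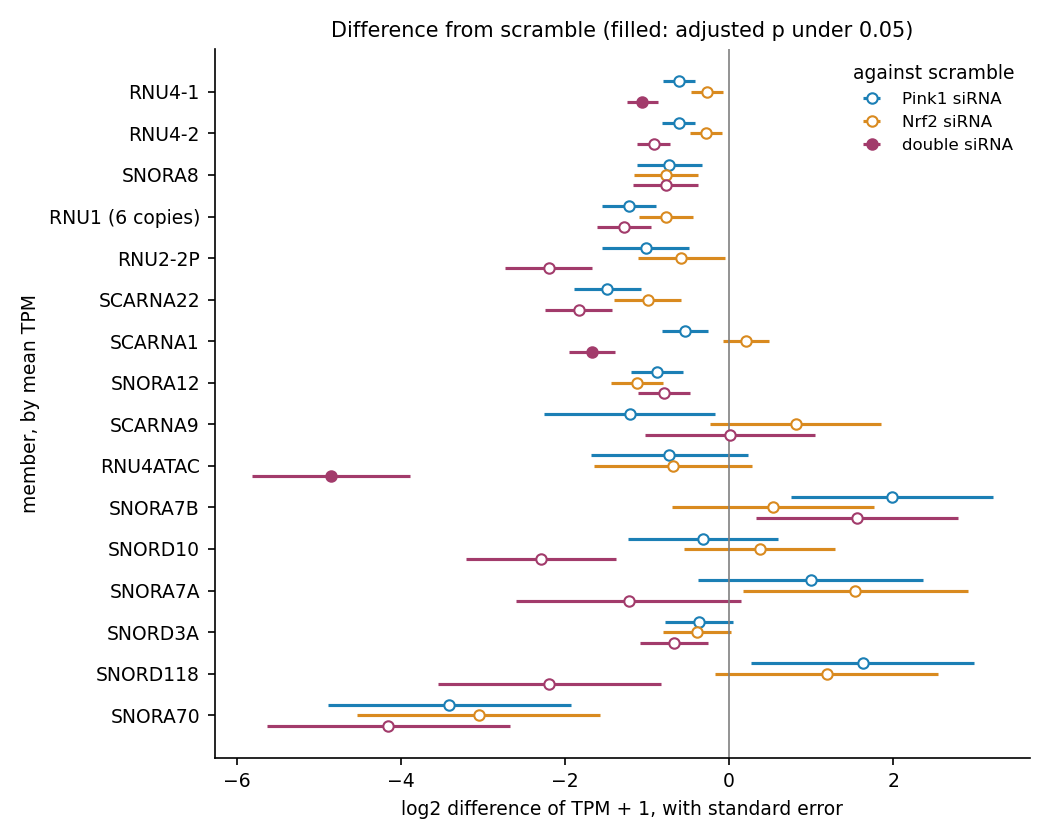
Log2 difference of TPM + 1 from scramble (horizontal axis) with its standard error for the members that averaged 20 TPM or more, the 6 U1 names drawn once, in the Pink1, Nrf2 and double siRNA groups. Filled points have an adjusted p under 0.05, which holds for RNU4-1, SCARNA1 and RNU4ATAC with the double siRNA only.

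**Figure D4:**
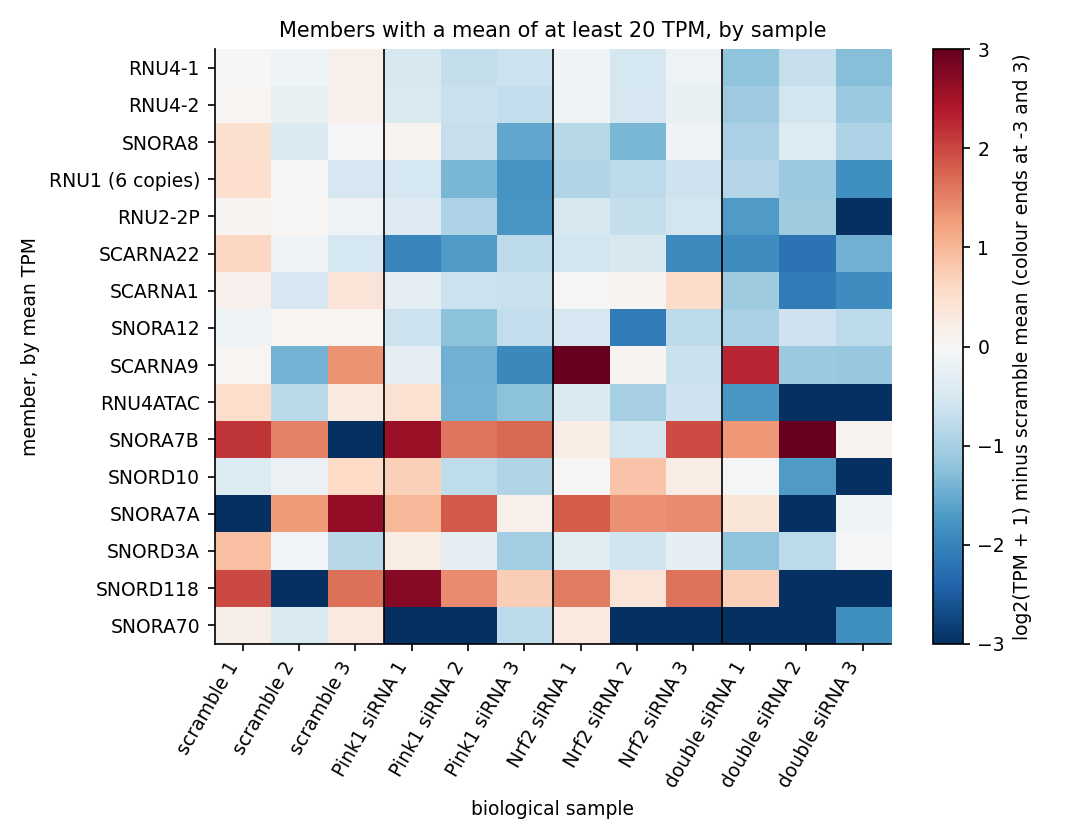
Log2(TPM + 1) minus the scramble mean (colour, ends at -3 and 3) for the same members (rows) in the 12 biological samples (columns). RNU4-1 and RNU4-2 are blue in all Pink1 and double siRNA samples, whereas SNORA7A, SNORA7B and SNORD118 change colour between samples of 1 group.

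Summed by class, spliceosomal snRNAs came to 43695 ± 4342 TPM in scramble, 28071 ± 3129 TPM with the Pink1 siRNA, 35658 ± 4748 TPM with the Nrf2 siRNA and 21962 ± 4945 TPM with the double siRNA (SD, n = 3). The scaRNAs came to 405 ± 88.5, 184 ± 34.1, 363 ± 136 and 182 ± 106 TPM in the same order. The H/ACA snoRNAs came to 1333 ± 281, 904 ± 352, 825 ± 219 and 772 ± 154 TPM, and the C/D snoRNAs to 353 ± 148, 189 ± 80.2, 239 ± 136 and 120 ± 66.2 TPM. Without the U4 genes, all members came to 4737 ± 1100 TPM in scramble and 2133 ± 416 TPM with the double siRNA. This sum and that of the spliceosomal snRNAs include the U1 value under each of its 6 names. Every one of these class means was highest in scramble, and no test was made on the sums. The share taken by ENSG00000226958 also varied between these samples. With that transcript removed and the rest rescaled, the RNU4-1 difference with the double siRNA was -1.16 (limma, adjusted p = 0.0078) and 8 members were called.

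Technical replicates showed how firmly a member's value can be read. Between the 2 libraries of a sample, the SD on the log2 scale had a median of 1.23 over the 143 members and 0.20 over all genes tested. RNU4-1 and RNU4-2 had SDs of 0.10 and 0.07, close to the median of 0.07 for all genes at or above 100 TPM, and the U1 measurement had 0.25. At 20 to 100 TPM the members' median was 1.93 and that of all genes 0.13. At 1 to 5 TPM these were 1.17 and 0.36. Among the 653 pairs of libraries in which a member was above 0 at all, 318 pairs (48.7%) had it at 0 in one library. The paired test of technical replicate 2 against 1 called no member (6 at an unadjusted p under 0.05) and 0.0% of all 13810 genes by limma (696 at an unadjusted p under 0.05). For RNU4-1, RNU4-2 and U1 the SD between biological samples of a group was 3.18, 4.75 and 2.79 times the technical SD of a mean of 2 libraries, and for SCARNA22 0.92 times.

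Low values moved in steps. In scramble replicate 1 SCARNA13 had 3.58 and 10.98 TPM, a ratio of 3.07, and in scramble replicate 3 it had 5.24 and 10.72 TPM, a ratio of 2.05. SNORA73B had 7.37 and 15.05 TPM in scramble replicate 1, a ratio of 2.04, and 11.12 and 11.45 TPM in scramble replicate 2, a ratio of 1.03. TPM does not keep the number of read fragments, so the counts behind these steps are unknown.

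Most members were present in few libraries: 85 of 187 were above 0 in 1 library, 141 in at most 4, and 12 in all 24. The 53 members of 91 to 120 nt were above 0 in a median of 1 library and never in more than 4, while the 15 members of 201 to 353 nt were above 0 in a median of 17 libraries. When seen at all, short members had high values: the smallest value above 0 had a median of 109 TPM for the 9 members of 74 to 90 nt and of 2.28 TPM for those of 201 nt or more. SNORD86, for example, was at 183 TPM in scramble replicate 2, at 15.9 TPM in double siRNA replicate 1 and at 0 in the other samples. Members of 121 to 140 nt ranged from 1 library to all 24, the latter in SNORA8.

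**Figure D5:**
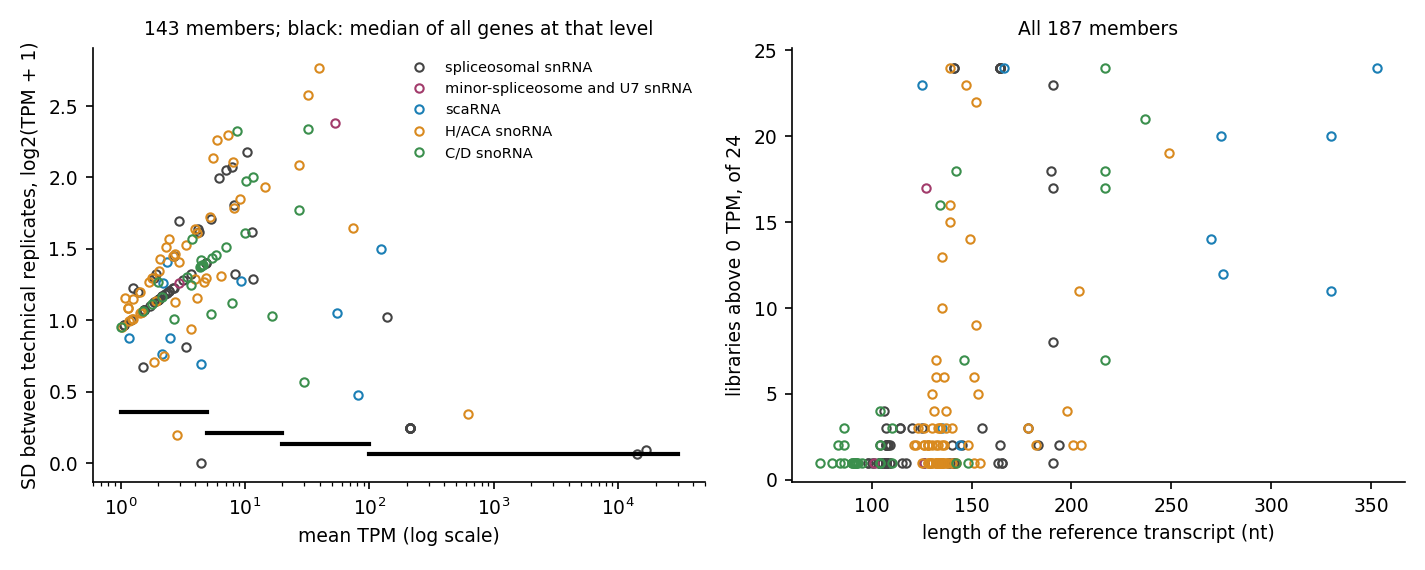
Left, SD between technical replicates in log2(TPM + 1) against mean TPM (log scale) for the 143 members tested, coloured by class, with black lines for the median of all genes in 4 ranges of TPM. Right, number of libraries above 0, of 24, against the length of the reference transcript for all 187 members. Members lie above the black lines, or close to them for RNU4-1 and RNU4-2, with 2 low exceptions (SNORA20 and RNU6-1095P, seen in 1 sample each). Those of at most 120 nt are in at most 4 libraries.

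By position in GENCODE 29, 90 members lie in an intron of a gene on their strand, 49 within an annotated exon, 7 across an exon boundary, and 41 in no such gene. Those within an exon of a protein-coding host include SNORA8 (TAF1D), SNORA70 (RPL10), SNORA7A (RPL32), SNORD10 (EIF4A1), SNORD118 (TMEM107), SNORD86 (NOP56) and SNORD35A (RPL13A). Whether reads of the host transcript enter their values was not tested. Of the host genes, 114 were tested, and limma called none in the comparisons with scramble (16, 8 and 18 at an unadjusted p under 0.05 with the Pink1, Nrf2 and double siRNA). Over all genes 0.471%, 0.333% and 0.753% were called in these comparisons, so none of 114 is near the background. The unadjusted counts of hosts have no such share beside them and are not read as a result. The host genes GPR160 and SNHG19 were called between the Pink1 and Nrf2 siRNA, lower and higher with the Pink1 siRNA, where 0.992% of all genes were called. Over the 114 hosts, median log2 differences from scramble were 0.09, -0.02 and 0.02 with the Pink1, Nrf2 and double siRNA, beside 0.02, 0.02 and 0.01 for all genes. The abundant SCARNA1 and its host PPP1R8 can be set side by side: with the double siRNA, PPP1R8 was at 11.5 ± 4.22 TPM against 12.1 ± 1.32 TPM in scramble (SD, n = 3).

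The proteins that build, carry and process these RNAs were taken as 9 lists of 118 genes, of which 117 were found and tested. In the 6 comparisons between groups limma called no listed gene. Over all genes 0.471%, 0.333% and 0.753% were called with the Pink1, Nrf2 and double siRNA against scramble, so none of 117 is near the background. At an unadjusted p under 0.05 there were 11, 3 and 19 in the same order, without a share over all genes to set beside them. The 19 included 8 of the 22 Sm and snRNP proteins and 5 of the 9 LSM proteins. Every other list gave at most 3, and the Cajal body and SMN complex gave 0 of 16. No list was tested as a set. Without a share over all genes, these unadjusted counts are not read as a result about any list. A further list of 18 tested snoRNA host genes was drawn up for hosts without a protein product, but 1 of them, CWF19L1, is protein-coding. It also had none called, with 1, 0 and 4 at an unadjusted p under 0.05, again without a share over all genes. The median log2 difference of that list, CWF19L1 included, was -0.27 with the double siRNA. The 9 lists included the Sm and snRNP proteins (22 tested), for which the median log2 difference with the double siRNA was 0.11, and the LSM proteins (9 tested, -0.41). Others were the Cajal body and SMN complex (16 tested, -0.09) and the Integrator and SNAP complexes that make snRNAs (22 tested, 0.13). There were also 3′ trimming and decay enzymes (18 tested, -0.04), C/D box proteins (4 tested, 0.09) and H/ACA box proteins (4 tested, -0.10). Fibrillarin, the methyltransferase FBL of C/D particles, was at 157 ± 11.2 TPM in scramble and 190 ± 42.5 TPM with the double siRNA (SD, n = 3). SNRPE, an Sm protein, was at 251 ± 24.8 and 160 ± 52.3 TPM (SD, n = 3; limma, adjusted p = 0.25); it was picked out after its values were seen.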

How the data were processed

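Poly(A)-selected RNA (a stranded mRNA kit, paired reads) was sequenced, per the labels' protocols. The submitters' processing notes name STAR, RSEM, edgeR, GRCh37 and hg19, without versions or roles. The deposited table gives TPM computed by the authors; columns sum to between 999678 and 999945.

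Of 24053 identifiers, 22789 were in the gene name table. TPM of the 2 technical replicates was averaged. Log2(TPM + 1) of the 12 samples was fitted with limma 3.58.1 (R 4.3.3; 4 groups, trended prior), for genes averaging at least 1 TPM. Adjusted p is Benjamini-Hochberg over all 13810 genes; calls are below 0.05; tests are two-sided. With 3 against 3 samples an exact permutation test cannot go below p = 0.1. Technical replicates were compared by limma on the 12 paired differences. The fit was tested on simulated data. The columns' replicate numbers did not pair the samples.

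Sequences, lengths and hosts come from GENCODE 29 on GRCh38 (the shortest transcript where a gene has several) in place of the planned RefSeq table, which gives no strand. Named members were those called in any comparison, the 5 highest per class, the largest non-overlapping changes against scramble and the extremes of technical SD. RNU2-2P, SNRPE and SNHG3 were named after their values were seen. Members and lists were chosen with earlier results of these data known. Alternatives covered the pseudocount, filter, scaling, groups fitted, replicate block, single technical replicates and samples left out.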

Additional observations from a re-analysis of the deposited data

How the results depend on the processing

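Depth is unknown, which limits what can be said of members seen in few libraries. Counts below are members called by limma for Pink1, Nrf2 and double siRNA against scramble, main values 2, 1 and 4. A pseudocount of 0.1 gave 1, 0 and 3; no filter gave 0, 1 and 2; a minimum mean of 5 TPM gave 0, 0 and 6; technical replicate 1 alone gave 0, 0 and 1, and replicate 2 alone 1, 0 and 1. Fitting only the compared groups gave 1, 0 and 2. For the double siRNA, median-of-ratios rescaling gave 7 and removal of ENSG00000226958 gave 8, all lower.

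Same-numbered samples did not deviate together (correlations from -0.16 to 0.28, 6 of 18 above 0.1). With the replicate block the counts were 0, 1 and 10; for Pink1 against Nrf2 siRNA 0 (main value 1), and for the joint test 3.

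Pink1 against Nrf2 siRNA also gave 0 with a pseudocount of 0.1, no filter, the minimum of 5 TPM, technical replicate 1 alone and the compared groups alone, and 2 with quantile normalization. The double siRNA against the Pink1 siRNA (main value 0) gave 1 with quantile normalization and with technical replicate 2 alone; against the Nrf2 siRNA (main value 0) it gave 1 with the minimum of 5 TPM. The joint test (main value 5) gave 3 with a pseudocount of 0.1, 2 with no filter, 3 with the minimum of 5 TPM, and 0 and 3 with technical replicates 1 and 2 alone.

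With 1 sample left out, the counts ran from 0 to 2 for the Pink1 siRNA (0 without Pink1 siRNA replicate 3, 1 without scramble replicate 1 or 3), 0 to 2 for the Nrf2 siRNA (0 without Nrf2 siRNA replicate 3, 2 without scramble replicate 2 or Nrf2 siRNA replicate 2), 2 to 5 for the double siRNA (2 without scramble replicate 1 or 3, and 3 without double siRNA replicate 3), 0 to 1 and 0 to 2 for the double siRNA against the Pink1 and Nrf2 siRNA, 1 to 2 for Pink1 against Nrf2 siRNA (never SCARNA13), 0 to 1 for the interaction and 2 to 6 for the joint test.

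The members' median technical SD, 1.23, was 2.06 and 0.70 with pseudocounts of 0.1 and 5 and 1.62 with the minimum of 5 TPM; the biological SD, 0.89, was 1.47, 0.53 and 1.22. Calls over all genes, 65, 46 and 104 for the 3 siRNA groups against scramble, were 171, 148 and 333 with median-of-ratios rescaling, 215, 167 and 295 with quantile normalization, 172, 131 and 304 with ENSG00000226958 removed, 40, 39 and 64 with no filter, 40, 30 and 106 with the replicate block, 40, 21 and 71 with technical replicate 1 alone, 34, 32 and 48 with technical replicate 2 alone, and 46, 8 and 6 with the compared groups alone. The causes of these shifts were not tested. Of the members called or without overlap against scramble, no log2 difference changed sign under any alternative run for it; that of RNU4-1 with the Nrf2 siRNA was 0 with quantile normalization.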

Other observations

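Among 17 other short or untailed RNAs looked for, 4 were in the table. RNVU1-18, a variant U1 gene outside the members, had the same group means as RNU1-1, 355 ± 122 TPM in scramble and 145 ± 45.5 TPM with the double siRNA (SD, n = 3). RNVU1-7, another variant U1, was at 199.6 ± 42.4, 134 ± 101, 165 ± 78.6 and 145 ± 45.5 TPM in the scramble, Pink1, Nrf2 and double siRNA samples, and limma called no difference from scramble (adjusted p = 0.54, 0.84 and 0.76). Its double siRNA mean and SD are those of RNVU1-18, so RNVU1-7 is not taken as an independent U1 measurement. Whether these genes share reads was not tested. TERC, the RNA of telomerase, was at 2.73 ± 1.96 TPM in scramble and 3.03 ± 1.71 TPM with the double siRNA (SD, n = 3). RNY1, a Y RNA, was listed at 0 in 11 samples and at 42.0 TPM in Nrf2 siRNA replicate 3.

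Other sets of members also shared every value. Besides the U1 names, 6 sets did so, among them SNORD116-14, SNORD116-15, SNORD116-17 and SNORD116-19, above 0 in 1 library, and RNU4-38P with SNORA30, a pair from different classes with different sequences, also above 0 in 1 library.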
